A study of Rattus norvegicus with 3 samples.

Results

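The proximal part of rat chromosome 13, from 1 to 35 Mb in build rn6, holds a dense array of H3K9me3 peaks in round spermatids. Its members are the deposited H3K9me3 peaks that start between 1 and 35 Mb, 7330 of 49591 in the list, together with the 60 of 7684 H3K4me3 peaks that start there. The interval was chosen by the density and cover of its H3K9me3 peaks, so its cover, peak numbers, widths and scores are descriptions and support no test. At the proximal boundary, the last peak outside the rule lies at 908369 to 910198 with a score of 117.86 and the first inside at 1000618 to 1001916 with a score of 83.0. At the distal boundary, the last peak inside lies at 34806460 to 34807388 with a score of 36.44 and the first outside at 35410852 to 35411624 with a score of 42.59.

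The study mapped histone marks by chromatin immunoprecipitation and sequencing (ChIP-seq) in round spermatids from the testis of untreated Sprague-Dawley rats, in relation to gene expression in these cells. It has 3 samples: chromatin precipitated with a mouse antibody against H3K4me3, chromatin precipitated with a rabbit antibody against H3K9me3, and a library made without antibody. All share strain, cell type and the absence of treatment, and the labels give no age. Peaks of the 2 marks were used, from 1 library per mark, and the third library was not analysed here. The name of each list joins the mark to the word negative, which is read here as the control without antibody. The labels do not state this reading, and under the other one, control and precipitate exchanged, every position below would mark excess of the control. Peak lists cannot show that the cells are round spermatids, so the cell type rests on the labels.

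H3K9me3 is set on histone H3 by enzymes such as SETDB1 and the SUV39H pair and is bound by heterochromatin protein HP1. It is typical of pericentromeric repeats, of transposon remnants targeted through KRAB zinc finger proteins and their partner TRIM28, and of silenced gene clusters. H3K4me3 is set by SET1 and MLL complexes and marks the start sites of active or poised genes. Round spermatids are the haploid cells that follow meiosis and still carry most of their histones, before protamines replace them.

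The deposited lists give no read numbers. Library depth is thus unknown, no error between replicates can be given and no limit of detection applies to a stretch without peaks. The authors' score of a peak, which has no stated unit, starts at 30 in both lists. Its median over the whole list is 60.44 for H3K9me3 and 49.5 for H3K4me3. The score is used below only within a list, except where scores of overlapping peaks are set side by side. Intervals are 95% intervals (Wilson for shares, binomial order statistics for medians) that assume independent peaks and reflect no more than counting error.

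H3K9me3 peaks covered 38.0% of the interval, and the cover was uneven at every scale examined. Of the 34 windows of 1 Mb, 18 were covered to 40% or more and 4 to under 10%. The most covered were 3 to 4 Mb at 65.0%, 8 to 9 Mb at 64.1% and 11 to 12 Mb at 62.4%. The least covered were 25 to 26 Mb at 0.588%, 26 to 27 Mb at 1.57% and 34 to 35 Mb at 5.34%. In windows of 100 kb the median cover was 40.7%. Of these 340 windows, 178 were covered to at least 40%, 109 from 5% to under 40% and 53 to under 5%, with 32 of the last holding no peak. At least 50% was reached in 135 of the 340 windows. Over all chromosomes 0.893% of such windows reached it, a contrast that the choice of the interval fixes.

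**Figure D1:**
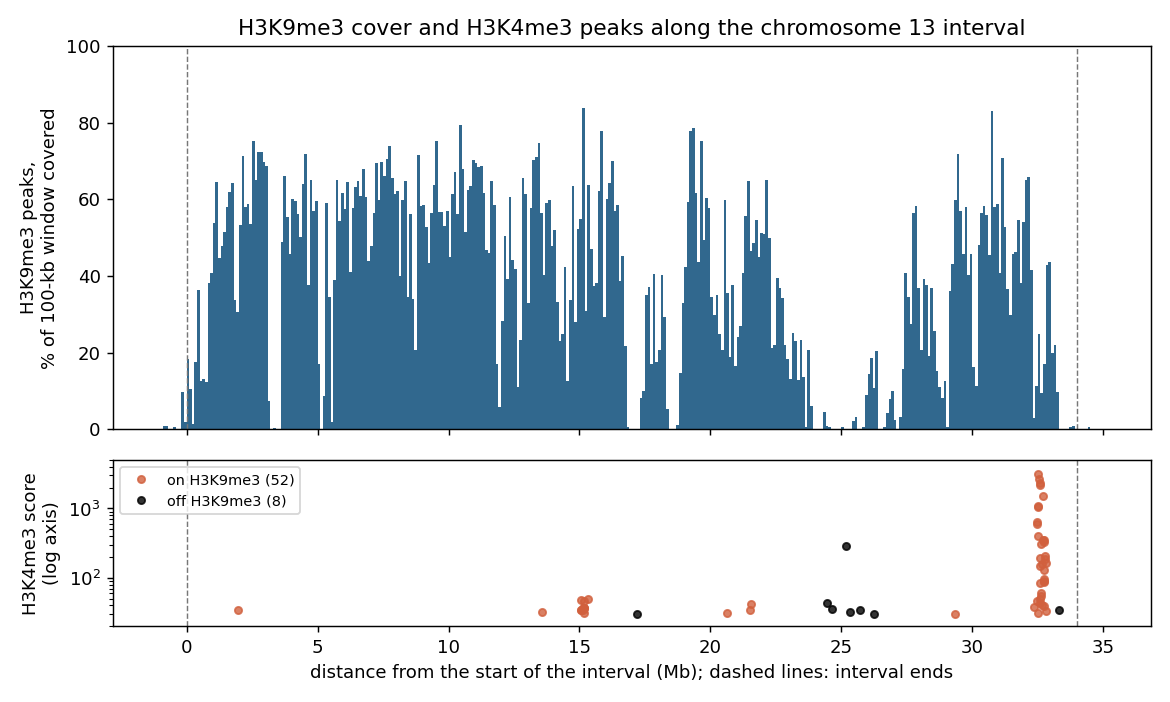
The upper panel plots the percent of each 100-kb window covered by H3K9me3 peaks against the distance from the start of the interval in Mb, and the lower panel the authors' score of each H3K4me3 peak on a log axis, with orange points for the 52 on H3K9me3 and black points for the 8 off it. Cover stands high over most of the first 24 Mb, falls to near 0 in the break and rises again, and 35 of the 60 H3K4me3 points stand in 1 column near the distal end.

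Several zones followed each other along the interval. From 1 to 2 Mb cover was 20.1%. It then stayed high for 16 Mb: from 2 to 18 Mb, 4224 peaks covered 50.7%, with single windows between 29.2 and 65.0%. A thin zone from 18 to 20 Mb was covered to 15.5% by 240 peaks. From 20 to 24 Mb cover returned to 43.4%, and from 24 to 25 Mb it was 13.9%. The break from 25 to 27 Mb was covered to 1.08%. Beyond it cover was 8.73% from 27 to 28 Mb, 25.1% from 28 to 30 Mb and 47.3% from 30 to 33 Mb. The rise was uneven, with 27.6% from 28 to 29 Mb and 22.7% from 29 to 30 Mb. The window from 33 to 34 Mb was covered to 32.5% and the last, from 34 to 35 Mb, to 5.34%.

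The most continuous cover by H3K9me3 peaks lay in the first part of the interval. Taking runs of neighbouring 100-kb windows with at least 40% cover, 8 runs were 1 Mb or longer and made up 12 Mb. The longest ran from 9.8 to 12.8 Mb with a mean cover of 60.4%, and the next from 6.7 to 9.4 Mb, also with 60.4%. The 3 that lay farthest along ran from 20 to 21 Mb, from 22.2 to 23.3 Mb and from 31.2 to 32.3 Mb. When peaks within 1 kb of each other were joined, the 7330 peaks gave 2761 regions with a median width of 2899 bp. The 416 regions over 10 kb held 50.2% of the joined length. The widest joined region ran from 8655727 to 8735094, over 79.4 kb, and was made of 30 peaks. Their scores ran from 32.35 to 851.19 with a median of 134, and 2 of the 30 reached 500.

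The proximal edge was gradual. Before 1 Mb the list held 9 peaks on chromosome 13, covering 1.41% of that first Mb. Of these, 3 stood alone between 122856 and 506684, 5 stood together between 851129 and 864765, and the last began at 908369. The widest of the 5 was 5170 bp with a score of 373.29. With a minimum of 10% cover in a 100-kb window, the edge fell at 1.0 Mb. It fell at 0.8 Mb with a minimum of 5% and at 1.4 Mb with 20%, so the start of the array was not a single step.

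The distal edge was narrower. With the same 10% minimum it fell at 34.2 Mb, with 5% at 34.3 Mb and with 20% again at 34.2 Mb. The next 100 kb were covered to 9.64%. The last peak there ended at 34230685, and a gap of 567 kb followed. Beyond this gap came 2 peaks, with scores of 38.98 and 36.44, and from 35 to 36 Mb the list held 1 H3K9me3 peak, which covered 0.0773% of that Mb. The 50 kb before the gap were covered to 19.4%, so the array had thinned before it ended.

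The break from 25 to 27 Mb was almost free of H3K9me3 peaks. Its 23 peaks had scores from 30.4 to 153.94 and a median of 43.4, against 93.1 over the whole interval, and the widest was 2006 bp. Most formed 3 small groups, 6 peaks from 25371780 to 25403295, 6 from 26423037 to 26565696 and 8 from 26929461 to 26962369. From 25403296 to 26423036, over 1020 kb, the list held 2 peaks with scores of 45.5 and 30.4, each 559 bp wide. The central Mb of the break was covered to 0.344%. The proximal shoulder declined over the Mb before, in which cover was 13.9%, and the distal shoulder rose over more than 1 Mb.

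H3K4me3 was present in the break. It held 5 H3K4me3 peaks, 2.5 per Mb, against 0.758 per Mb over the interval without the window from 33 to 34 Mb and 2.75 per Mb over all chromosomes. None of the 5 lay on an H3K9me3 peak, against 31.9% of H3K4me3 peaks on one over all chromosomes. The break was named with its cover of 1.08% known, so little overlap was possible there. The strongest ran from 26172402 to 26175081, was 2680 bp wide and had a score of 286.66, which ranked 421 of 7684 in the list. It was the strongest H3K4me3 peak of the interval outside the window from 33 to 34 Mb, and it stood 80.3 kb from the nearest H3K9me3 peak. The other 4 had scores from 31.88 to 42.77. They lay at 25440506 to 25441442, 25656994 to 25657613, 26323556 to 26324163 and 26710103 to 26710685, between 37.2 and 148 kb from H3K9me3. No annotation of build rn6 was used here, so the genes at these positions are not named.

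Gaps of very different kinds interrupted the array. There were 49 gaps of at least 50 kb without an H3K9me3 peak, together 7.08 Mb. The 19 of at least 100 kb made up 5.08 Mb and divided the interval into 20 blocks, of which 9 were 1 Mb or longer. Cover in those 9 blocks ran from 22.1 to 59.8%, and outside the 19 gaps the interval was covered to 44.6%. The longest block ran from 9775318 to 17747308, over 7.97 Mb, with 2159 peaks and 52.2% cover. The 5 longest gaps were 582 kb from 25509432, 567 kb from 34230686, 508 kb from 24863799, 468 kb from 19320876 and 437 kb from 17880510. Of these, 2 lay in the break or across its start, 1 formed the distal edge and 2 lay at or near the ends of the thin zone from 18 to 20 Mb.

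Some gaps were cut into dense cover, whereas others lay in sparse surroundings. The gap from 9641449 to 9775317, 134 kb long, had 81.7% cover in the 50 kb before it and 78.0% in the 50 kb after it. Those from 6043200 to 6289020 and from 23337284 to 23453380 also had at least 40% on each side. A further 4 large gaps had such cover on 1 side only, and 5 had under 10% on each side. A pair of gaps from 4198648 to 4635591 formed a stretch of 437 kb with 1 peak of score 34.22, followed by 50 kb with 72.7% cover. Near 18 Mb, the 570 kb from 17747309 to 18317797 also held a single H3K9me3 peak, with a score of 31.84, and 1 H3K4me3 peak. Stretches of this kind, large gaps parted by less than 1 kb of peaks, numbered 4, and the other 2 lay in the break. Whether the rn6 assembly has unread or unmappable sequence in these gaps was not tested.

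**Figure D2:**
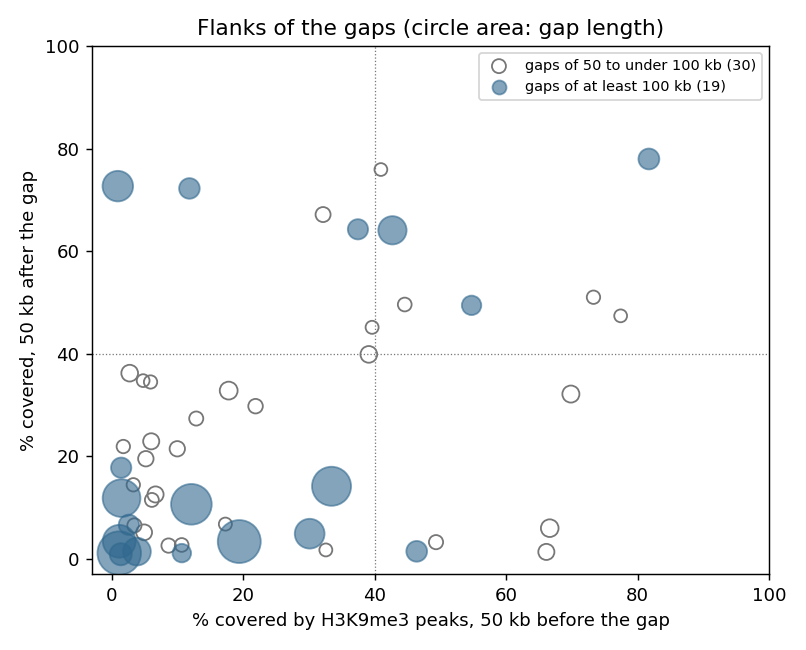
Each circle is a gap of at least 50 kb without an H3K9me3 peak, placed by the percent covered in the 50 kb before it (x axis) and after it (y axis), with an area in proportion to its length and dotted lines at 40%. The 19 filled circles are gaps of at least 100 kb: 3 lie above 40% on each side, and most of the longest lie near the lower left corner.

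Within the covered parts, peaks followed each other at short and irregular distances. The median distance between the midpoints of neighbouring peaks was 2511 bp (2467 to 2558 bp), with quartiles of 1717 and 3953 bp. The space left between neighbouring peaks had a median of 588 bp, 62.3% of these spaces were under 1 kb, and 1134 of 7329 were under 100 bp. In the block from 1 to 25 Mb the most frequent class of midpoint distances was 1500 to 2000 bp, with 16.5% of distances, and the frequency then fell without a second maximum up to 5 kb. No distance was under 500 bp. The lower limit is tied to the widths of the called peaks, whose minimum in the interval was 282 bp.

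No repeat length stood out at lags up to 100 kb, the longest examined. The autocorrelation of cover in 1-kb bins, which would rise again at the length of a regular repeat, was 0.69 at 1 kb, 0.37 at 5 kb, 0.29 at 10 kb, 0.21 at 50 kb and 0.16 at 100 kb in the block from 1 to 25 Mb. Its largest rise above an earlier low was 0.018, at a lag of 46 kb. In the block from 27 to 35 Mb the largest rise was 0.036, at 100 kb, so a larger rise beyond that lag would not be seen. In the stretch from 7 to 12 Mb, chosen after its values were seen for its even cover, the autocorrelation was 0.14 at 10 kb and 0.026 at 50 kb, and the largest rise was 0.072, at 91 kb. In the same list, the domains on chromosome 7 (0 to 11 Mb), chromosome 8 (16 to 22 Mb) and chromosome 14 (46 to 52 Mb) had largest rises of 0.021, 0.039 and 0.0499. A repeat shorter than the width of a peak would not be seen in a peak list.

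**Figure D3:**
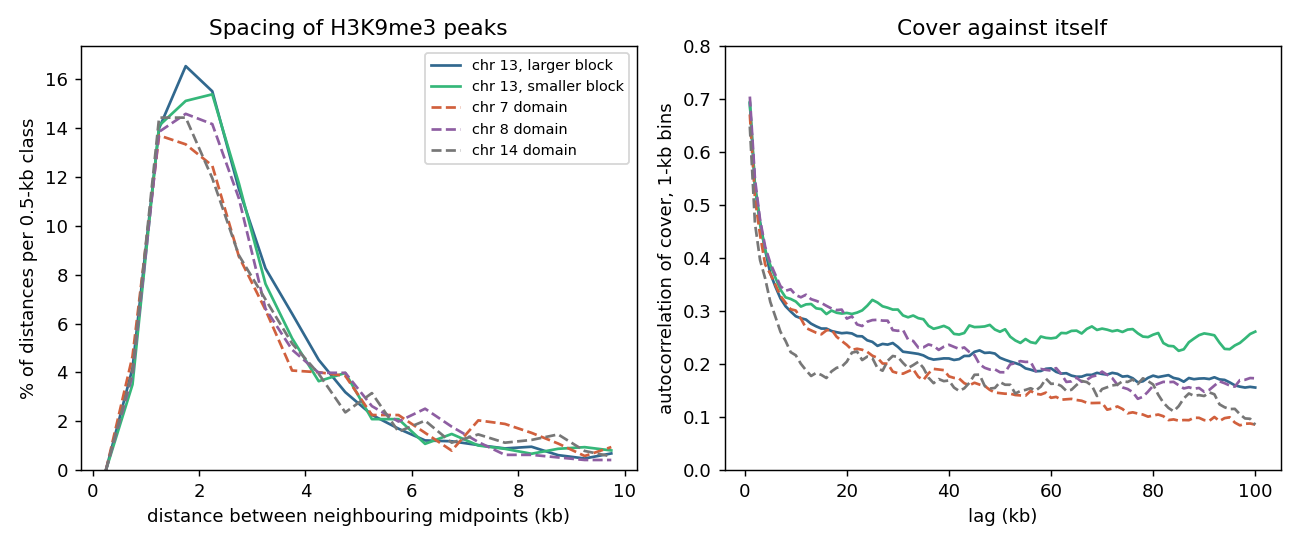
The left panel plots the percent of neighbouring H3K9me3 midpoint distances in 0.5-kb classes, and the right panel the autocorrelation of H3K9me3 cover in 1-kb bins against the lag in kb, for the 2 blocks of the chromosome 13 interval (solid lines) and domains on chromosomes 7, 8 and 14 (dashed lines). Distances are most frequent between 1 and 2.5 kb in each domain, and the autocorrelation falls with no return to a high value.

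The blocks of the interval were filled more than these domains, with smaller spaces between peaks, whereas midpoint distances differed less. The blocks of chromosome 13 held 243 and 185 peaks per Mb, against 125, 159 and 148 on chromosomes 7, 8 and 14. Their cover was 43.7 and 29.8%, against 16.6, 25.9 and 19.99%. The median space between neighbouring peaks in these blocks was 551 and 763 bp, against 1300, 831 and 1141 bp. The median midpoint distance was 2493 bp (2449 to 2540 bp) from 1 to 25 Mb and 2587 bp (2462 to 2672 bp) from 27 to 35 Mb. It was 2834 bp (2662 to 2981 bp) on chromosome 7, 2675 bp (2517 to 2826 bp) on chromosome 8 and 2751 bp (2588 to 2992 bp) on chromosome 14. These intervals treat the peaks of 1 library as independent, so no difference or likeness between domains is read from whether they meet. Gaps of at least 100 kb numbered 0.375 and 0.5 per Mb in the blocks of chromosome 13, 1.27 and 1.33 on chromosomes 7 and 8, and 0.333 on chromosome 14. The domains were chosen for density too, and no test was made.

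Windows with more cover tended to hold wider peaks with higher scores, with exceptions. Over the interval the median width was 1276 bp (1248 to 1305 bp) and the median score 93.1 (89.5 to 95.8). Window medians of the width ran from 683 bp at 25 to 26 Mb to 1734 bp at 4 to 5 Mb. Window medians of the score ran from 35.1 to 142, with the extremes in the same windows. Across the 34 windows, cover had a rank correlation of 0.74 with the median width, 0.69 with the median score and 0.94 with the number of peaks. The window from 4 to 5 Mb, with the widest and highest medians, was covered to only 29.2%, and that from 33 to 34 Mb, with a median score of 120, to 32.5%. Across the 7330 peaks, width and score had a rank correlation of 0.92, so their rankings were close over the whole set. The highest scores and the widest peaks nevertheless lay partly in different windows. These correlations come from windows and peaks of 1 library and are descriptions. Cover is made from the number and width of the same peaks, so its correlations with them are partly built in.

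High scores were concentrated in a few windows. A score of at least 1000 was reached by 52 of the 7330 peaks (0.709%), and 17 of the 34 windows held none. Of the 52, 17 lay from 33 to 34 Mb and 14 from 16 to 17 Mb. Above a score of 2000, the count was 18, with 10 and 7 in these 2 windows. Wide peaks were concentrated otherwise: 18 peaks exceeded 10 kb, of which 9 lay between 15984502 and 16891958 and none from 33 to 34 Mb. Shares over the whole list at these score and width limits are not given here, so no excess or lack is read from the counts.

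The 10 highest scores of the interval all lay in those 2 windows. The highest, 3217, was at 33474734 to 33479730. The remaining 6 from 33 to 34 Mb had a score of 3100, at widths from 1846 to 4636 bp. They started at 33690492, 33590955, 33501695, 33487547, 33570144 and 33527601, and each lay under at least 1 H3K4me3 peak. From 16 to 17 Mb came the 2 widest peaks of the interval, 23101 bp from 16193438 and 21437 bp from 16156962, both with a score of 3100, and a peak of 14560 bp from 16056378 with 3095.29. The next widest started at 16305545, 16141586 and 16102081 and were 16790, 14778 and 14592 bp wide. A score of exactly 3100 was shared by 8 peaks of the interval, and these ties do not rank the peaks.

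H3K4me3 peaks were few, and most lay on H3K9me3. Of the 34 windows, 22 held none. Of the 60 peaks, 52 overlapped an H3K9me3 peak by at least 1 bp (86.7%, 75.8 to 93.1%). Over all chromosomes the share was 31.9%, and the interval is covered to 38.0% by H3K9me3. The share was 100% (90.1 to 100%) for the 35 peaks from 33 to 34 Mb and 68.0% (48.4 to 82.8%) for the other 25. The window from 33 to 34 Mb was named for holding both marks, so its share and the 86.7% that includes it are descriptions. A second crowd of 11 peaks from 16 to 17 Mb lay wholly inside H3K9me3 peaks. Without both windows, a choice made after seeing the data, 6 of 14 were on H3K9me3 (42.9%, 21.4 to 67.4%). These 14 peaks are too few to set their share against that over all chromosomes. Most overlapping peaks thus lay in 2 places. In the domains of chromosomes 7, 8 and 14 the share on H3K9me3 was 87.1%, 11.1% and 96.7%, of 101, 9 and 30 H3K4me3 peaks.

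The window from 33 to 34 Mb held 35 H3K4me3 peaks, and 34 of them formed a cluster of 345 kb from 33474767 to 33820146. The remaining peak, at 33358327 to 33358810 with a score of 37.48, stood between gaps in H3K9me3 of 95.6 and 79.6 kb. The 35 scores ran from 30.72 to 3100 with a median of 163.82, and 28 were at or above the median of the whole list. The 5 highest were 3100 at 33501965 to 33505643, 2668 at 33527635 to 33529484, 2331 at 33592057 to 33595046, 2176 at 33570147 to 33572128 and 1494 at 33692472 to 33695141. They were 3679, 1850, 2990, 1982 and 2670 bp wide. The median distance between neighbouring midpoints of the 35 was 5.96 kb.

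Inside this cluster H3K9me3 peaks covered less than in the remainder of the window on each side, and many had high scores. Their median width was 1319 bp, near that of the interval. H3K9me3 covered 19.2% of the cluster, against 37.1% between 33 Mb and the cluster and 45.8% from the cluster to 34 Mb. Close to the cluster on the proximal side, cover was lower than inside it, at 2.99% from 33.3 to 33.4 Mb. Gaps of 95.6 and 79.6 kb lay there. Of the 38 H3K9me3 peaks in the cluster, 29 lay under H3K4me3, with a median score of 1247, and the 9 that did not had a median of 109 and a highest score of 292. In the whole window, the 30 H3K9me3 peaks under H3K4me3 had a median width of 1673 bp and the other 160 a median of 1128 bp. Per kb of width, the 30 had a median score of 656, and the other H3K9me3 peaks of the interval 71.0.

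Some peaks of both marks in this window shared their outlines. Among its 36 overlapping pairs, 12 had both ends within 100 bp of each other (33.3%, 20.2 to 49.7%), whereas over all chromosomes 17.1% of pairs did. The interval treats these pairs as independent, and the window was named for holding both marks, so no excess is read from it. Within 50 bp, 6 pairs matched, 16.7% against 7.80% over all chromosomes, and within 200 bp, 17 matched, 47.2% against 29.7%. The pair at 33570147 to 33572128 for H3K4me3 and 33570144 to 33572135 for H3K9me3 differed by less than 10 bp at each end. The pair at 33527635 to 33529484 and 33527601 to 33529446 differed by under 50 bp at each end. The H3K9me3 score was the higher one in 35 of the 36 pairs and equal, at 3100, in the remaining one. It was also the higher one in 16 of 17 pairs in the rest of the interval and in 83.7% of the 2563 pairs on all chromosomes, and the lists may differ in depth. Scores of the pairs rose together, with a rank correlation of 0.82 over 36 pairs of the same 2 libraries. These pairs involve 30 H3K9me3 peaks, so some peaks count more than once. A score of 3100 is shared by 8 H3K9me3 peaks of the interval, and ties at it do not rank pairs. The level of the library without antibody at these positions was not analysed here, and its part in the shared outlines was not tested.

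**Figure D4:**
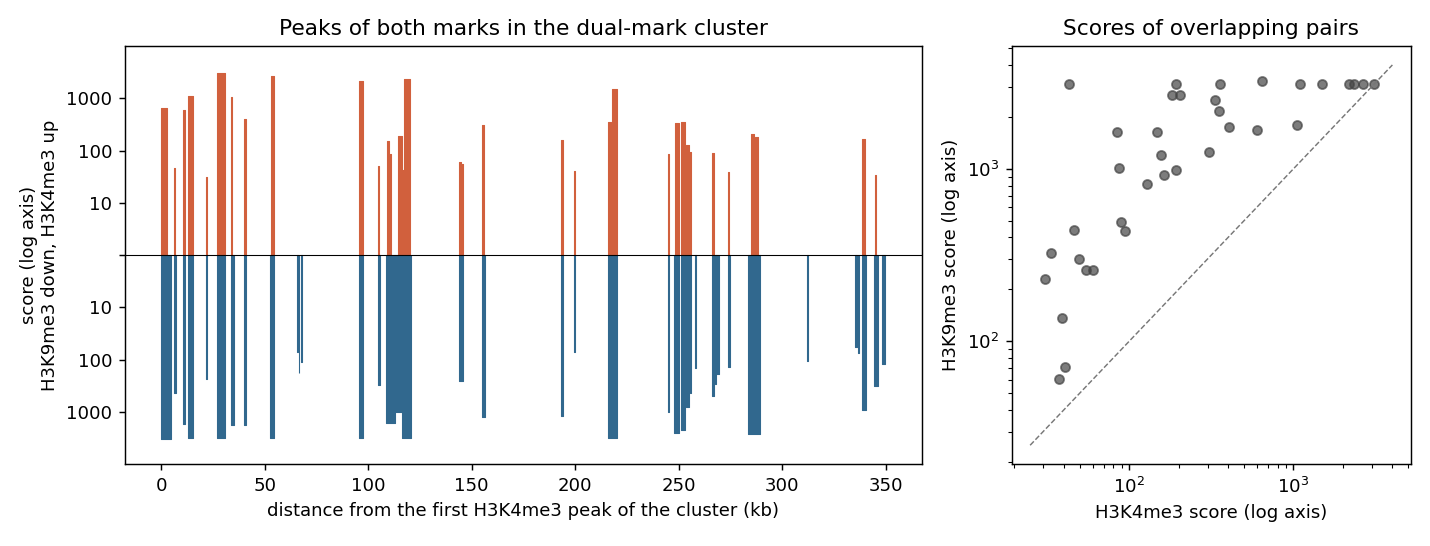
The left panel maps the peaks of both marks in the cluster by their distance from its first H3K4me3 peak in kb, with bar height giving the score on a log axis, H3K4me3 upwards in orange and H3K9me3 downwards in blue. The right panel plots the H3K9me3 score against the H3K4me3 score of the 36 overlapping pairs on log axes, with a dashed line of equal scores, and 35 pairs lie above the line.

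The crowd near 16 Mb had another form. Its 11 H3K4me3 peaks lay from 16058485 to 16316622, over 258 kb, and covered 3.44% of it, while H3K9me3 covered 62.6%. Their scores ran from 31.27 to 49.45, all under the median of the H3K4me3 list, and their widths from 574 to 1117 bp. The 4 highest were 49.45 at 16315831 to 16316622, 47.09 at 16058485 to 16059601, 47.03 at 16171249 to 16172245 and 37.06 at 16162581 to 16163238. They lay inside 6 H3K9me3 peaks that were 2050 to 21437 bp wide and had scores from 697.95 to 3100. None of the 11 pairs shared both ends within 100 bp. Here, weak and narrow H3K4me3 peaks sat within some of the widest H3K9me3 peaks of the interval.

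The remaining H3K4me3 peaks were scattered and weak. On H3K9me3 there were 6, of which the highest score was 41.64, at 22534799 to 22535457. The peak at 22520400 to 22521222, with a score of 33.91, shared both ends within 100 bp with an H3K9me3 peak of score 873.44. Off H3K9me3 and outside the break there were 3, at 18182147 to 18182713, 27248808 to 27249377 and 34309497 to 34310131. Their scores were 30.5, 30.27 and 34.31, near the lowest score of the list. The first and the last lay inside large gaps, 135 and 78.8 kb from the nearest H3K9me3 peak. In all, 8 of the 60 H3K4me3 peaks were off H3K9me3, and 5 of these 8 were in the break, where H3K9me3 covered 1.08%.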

How the data were processed

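ChIP-seq peak lists of H3K4me3 and H3K9me3 from 1 library each were used. The tools named in the submitters' processing notes are FastQC, bcl2fastq and Bowtie 1.2, and the build is rn6, without roles. Peak names in the deposited files carry the prefix MACS. Not given in the sources used here are the caller's version and settings, the treatment of duplicates and multiply mapped reads, and pooling. Multiply mapped reads could change peaks in repeats. The deposited score of each peak has no stated unit and was used to rank and filter. Starts are counted from 1, and windows use the starts in the files. Depth is unknown.

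Members and lists were chosen with earlier results of these data known. Cover, gaps between peak ends, midpoint distances, autocorrelation and overlaps were computed with pandas 2.3.3, numpy 2.4.6 and scipy 1.17.1 under Python 3.11.15, with figures from matplotlib 3.10.9, and the calculations were tested on simulated data. No test between marks or domains was made. Named were the 10 highest scores and 5 widest peaks, the 5 longest gaps, the 3 most and 3 least covered 1-Mb windows, the 5 highest H3K4me3 scores from 33 to 34 Mb, and outside that window every H3K4me3 peak off H3K9me3 and the 5 highest of those on it. Other regions were named after their values were seen. The alternatives tried were a minimum score equal to the list median, other edge and gap minimums, joined peaks, an overlap of 0.5 of the smaller peak and left-out windows.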

Additional observations from a re-analysis of the deposited data

How the results depend on the processing

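No paired analysis was possible because each mark has 1 library. With only peaks that reached the whole list's median score, cover was 32.6% of the interval and 0.460% of the break, the median spacing 3531 bp and the median width 1766 bp. The edges at 1.0 and 34.2 Mb and the gap count (54 against 49) moved little or not at all. The central Mb of the break was covered to 0.344%. Edge minimums of 5% and 20% gave 0.8 and 1.4 Mb for the proximal edge, and 5% gave 34.3 Mb for the distal one. With a minimum of 100 kb there were 19 gaps. Joining peaks within 1 kb gave a median spacing of 7901 bp and a median width of 2899 bp, so these 2 values describe how the caller divided the signal. The share of H3K4me3 peaks on H3K9me3 was 96.6% (28 of 29) for peaks at or above the median of each list, 68.0% without 33 to 34 Mb and 42.9% without 16 to 17 Mb as well, the last chosen after seeing the data. It was unchanged at an overlap of 0.5 of the smaller peak. Pairs with both ends matching numbered 6 within 50 bp and 17 within 200 bp, limits also chosen after seeing the data. The count of 35 H3K4me3 peaks from 33 to 34 Mb became 28 at or above the list median and 27 after joining. Without the break and that window the median score was 92.5.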

Other observations

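Distal to the array, a smaller group of H3K9me3 peaks lay from 39 to 40 Mb of chromosome 13. Its 41 peaks covered 4.50% of that Mb, the highest score was 287, and 1 H3K4me3 peak was listed there. The Mb from 35 to 36, just beyond the interval, held 1 H3K9me3 peak and 3 H3K4me3 peaks.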
